A study of Mus musculus with 24 samples.

Results

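The 33 genes described here encode the enzymes, isozymes and transporters of glycolysis, lactate handling, the pyruvate dehydrogenase step, gluconeogenesis and the pentose phosphate pathway, with ketohexokinase (Khk) and the transcription factor gene Hif1a. They were taken from a list of names, not from their values, and all 33 had a row in the deposited table of 14785 genes. The samples were kidneys of male C57/BL6 mice, aged 8 to 9 weeks at the start, and the series title describes the tissue as cortical. Messenger RNA was captured by its polyA tail and sequenced from 4 of the 10 animals in each group, giving 24 libraries in 6 groups of 4. Sham animals had sham surgery. UUO2 and UUO7 animals had 1 ureter ligated (unilateral ureteral obstruction) and were culled after 2 or 7 days. R1W, R2W and R4W animals had the ureter reimplanted after 7 days of obstruction and were culled 1, 2 or 4 weeks later. The title of R4W replicate 2 gives 4 weeks but its treatment label gives 2 weeks. It was kept in R4W, and values with it in R2W are given where they change a call.

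Glycolysis splits glucose into pyruvate, which is reduced to lactate or oxidised inside mitochondria by the pyruvate dehydrogenase complex. Gluconeogenesis runs the other way, bypassing the irreversible glycolytic steps with its own enzymes. The pentose phosphate pathway branches from glucose 6-phosphate and supplies NADPH and ribose. In the kidney the proximal tubule makes glucose from lactate, glutamine and glycerol, metabolises fructose and has little glycolysis, whereas more distal nephron segments use glucose. Many glycolytic genes are targets of hypoxia-inducible factor (HIF), which binds a short element with the core ACGTG.

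Levels are the authors' deposited values, read here as FPKM (fragments scaled by transcript length and library depth) divided by a library factor, called rescaled FPKM. The factors averaged 0.814 in sham and 1.14 in UUO7. Before rescaling, the median log2 difference of all genes between UUO7 and sham was 0.42, and after it 0.01. Fold changes are log2 differences of (rescaled FPKM + 1) with their standard errors (SE). A gene is said to have risen or fallen where limma gave an adjusted p under 0.05 over all 14785 genes. The 4 UUO2 libraries stood apart from the other 20. A scan found steps of 1 fragment in the low values of those 20 but not in the 4. The scan's settings were adjusted after its output was seen, so it does not show that such steps are absent. The sample numbers of the 4 alone carry the letter B. The series text describes 20 libraries run over 3 lanes. The UUO2 group and these library differences cannot be told apart. Sham replicate 2, R4W replicate 1 and R4W replicate 3 stood high in adipose markers: their summed level of 4 adipocyte genes was 139, 783 and 226, against 12.4 in UUO7 replicate 3 and at most 1.38 in the other 20 libraries. The same 3 libraries were also high in 3 summed urothelial markers (24.7 in sham replicate 2 against 0.619 to 1.70 in the other sham libraries, and 77.6 and 60.9 against 22.5 and 44.7 in R4W) and in the collecting duct gene Aqp2 (608.5 against 181 to 267, and 638.6 and 422.8 against 219 and 312).

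Promoter stretches of 4 members, picked after their values and motif matches were seen, are shown because the core of the HIF element stands in genes that moved in opposite directions: Slc16a3 and Hk2 rose at 7 days, and Pgk1 and Ldha fell, Ldha only after the rescaling (0.03 as deposited). They are RefSeq sequences on GRCm38.p6, written 5′ to 3′ on the gene's strand, ending at or near a transcription start. Capitals mark ACGTG or its reverse complement CACGT, and CACGTG is counted on both strands. Slc16a3 is shown at chr11:120948817-120949052 (plus strand, inside the annotated span of the gene and stopping before an exon of it, so that a second match in the window is not shown), Hk2 at chr6:82774455-82774704 (minus strand), Pgk1 at chrX:106186850-106187099 (plus strand) and Ldha at chr7:46845554-46845803 (plus strand, inside the annotated span of the gene). The start shown for Ldha was not found at a transcript's start in the annotation, and its other RefSeq window, from 46846832, held 0 matches.
Slc16a3: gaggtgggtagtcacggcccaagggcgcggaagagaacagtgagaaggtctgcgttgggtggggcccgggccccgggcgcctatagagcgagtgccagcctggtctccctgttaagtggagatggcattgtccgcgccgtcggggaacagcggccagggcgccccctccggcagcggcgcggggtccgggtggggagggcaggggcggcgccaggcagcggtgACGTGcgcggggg
Hk2: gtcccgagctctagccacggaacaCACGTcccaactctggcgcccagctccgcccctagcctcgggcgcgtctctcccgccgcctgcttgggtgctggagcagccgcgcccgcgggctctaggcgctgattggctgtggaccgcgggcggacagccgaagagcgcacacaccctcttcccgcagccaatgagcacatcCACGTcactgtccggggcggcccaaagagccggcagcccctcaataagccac
Pgk1: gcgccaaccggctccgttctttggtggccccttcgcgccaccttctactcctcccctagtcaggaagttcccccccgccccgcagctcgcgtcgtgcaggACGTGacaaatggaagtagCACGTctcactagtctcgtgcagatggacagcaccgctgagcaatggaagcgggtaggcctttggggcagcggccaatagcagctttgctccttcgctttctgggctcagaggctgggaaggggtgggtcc
Ldha: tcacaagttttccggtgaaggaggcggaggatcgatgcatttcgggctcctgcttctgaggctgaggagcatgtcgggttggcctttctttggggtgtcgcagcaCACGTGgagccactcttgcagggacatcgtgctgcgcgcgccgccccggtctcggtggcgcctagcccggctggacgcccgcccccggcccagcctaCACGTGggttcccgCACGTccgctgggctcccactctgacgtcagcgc
In the 250 bases before a RefSeq start, 15 of the 33 members (45.5%) held the motif in at least 1 promoter, against 18.5% of 27025 genes in the same table. At 7 days of obstruction 4 of these 15 genes rose, 8 fell and 3 did not pass the test. Of the 18 members without the motif, 4 rose, 8 fell and 6 did not pass. Among all genes 73.0% were called, and the difference between the sets was not tested. A second motif, TGACGT or its reverse complement ACGTCA (a core of the cAMP response element), was in 6 members (18.2%) and 7.29% of genes. A match is a description of the letters and not evidence of binding.

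Across the 33 members, obstruction for 7 days raised 8 and lowered 16. All 4 gluconeogenic genes fell, as did the catalytic subunits of pyruvate dehydrogenase and Khk, while the lactate exporter Slc16a3 and hexokinase 2 (Hk2) rose most. The count of 24 called members (72.7%) stood beside a background of 73.0% of all genes. The total is therefore no result about these genes. By direction, 24 divided into 8 and 16, while 36.5% of all genes rose and 36.5% fell. With the values as deposited the count was 27, with 15 rises and 12 falls, beside 77.9% of all genes called, 60.1% as rises and 17.8% as falls. No member was called in opposite directions by the 2 scalings, and 8 rises and 12 falls were called in both. Genes with small changes depended on the scaling: Hk1, Eno1, Ldha and Pdk1 fell only after rescaling, and Gpi1, Pfkl, Aldoa, Gapdh, G6pdx, Tkt and Taldo1 rose only as deposited. The authors' deposited table of fold changes, at adjusted p under 0.05, had 9 members higher and 20 lower, including all 24 called here in the same direction. The other 5 were G6pdx, higher, and Gpi1, Gapdh, Tkt and Taldo1, lower (-0.31, -0.555, -0.261 and -0.249), so for these 4 the authors' deposited table has the opposite direction to the rises seen in the values as deposited. In the other comparisons the authors' deposited table did not call Hk2, Pfkp and Pdk1 from 2 to 7 days or Pfkfb3 and G6pdx at 4 weeks, which were called here. Unlike the fit of rescaled values, it called Eno1 lower and Ldhb higher at 2 days and Aldoa lower at 4 weeks. From 2 to 7 days it added Gpi1, Khk and Hif1a, lower, and Pdk4, higher. In the first week of recovery it called 17 members, against 11 here, and 3120 of all genes. It added Pck1, Pcx, Pdk2 and Khk, higher, and Hk2 and Pdk4, lower. Between 1 and 4 weeks it called 6 members, against 3 here, and 2593 of all genes, adding rises of Pck1, G6pc and Pdk2.

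**Figure D1:**
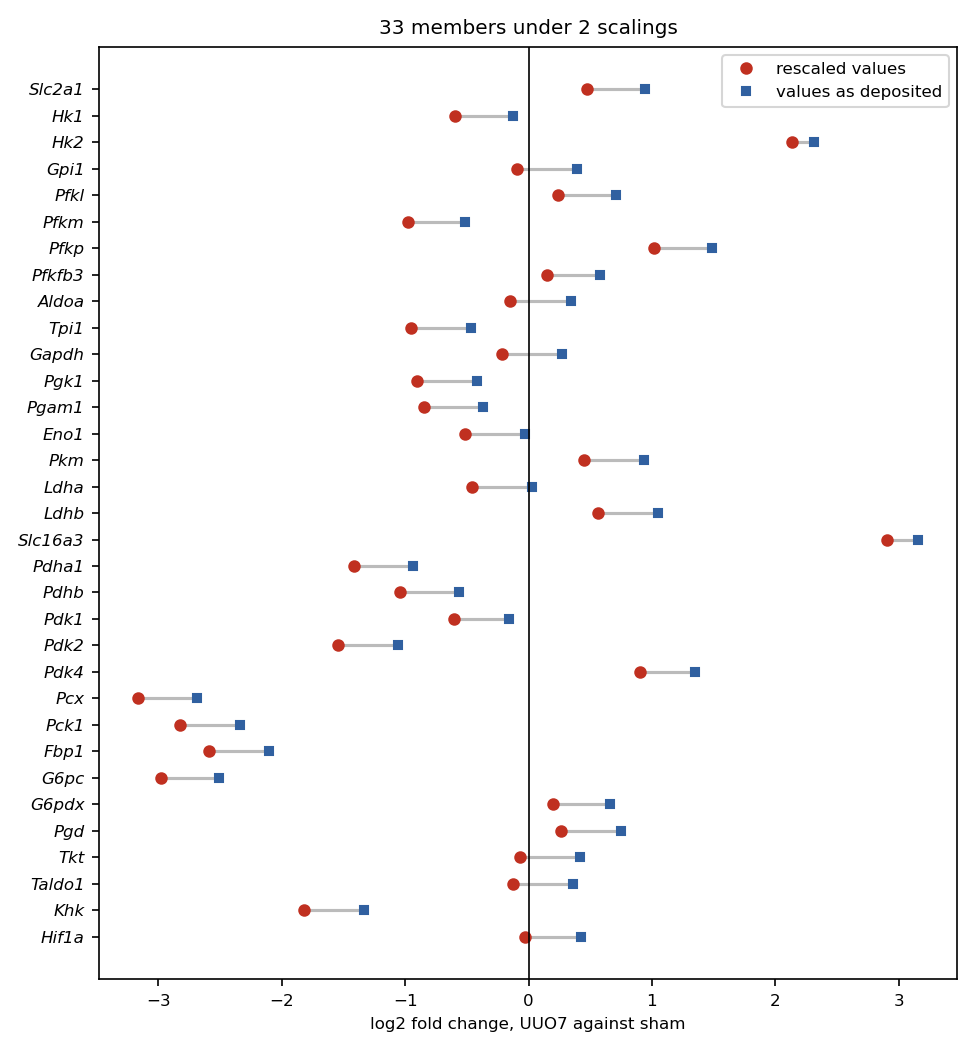
Log2 fold change (log2 of value + 1) of the 33 members in UUO7 against sham, from rescaled values (circles) and from values as deposited (squares). Every square lies to the right of its circle, and the sign differs for Gpi1, Aldoa, Gapdh, Ldha, Tkt, Taldo1 and Hif1a.

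After 2 days of obstruction 19 members were called, 8 higher and 11 lower (50.8% of all genes were called, 25.3% higher and 25.5% lower). The 8 rises included all 4 pentose phosphate genes. From 2 to 7 days 24 were called, 7 higher and 17 lower (background 62.0%, with 30.0% higher and 31.9% lower). One week after reimplantation 11 differed from UUO7, 4 higher and 7 lower (background 14.4%, with 7.26% higher and 7.14% lower). Between 1 and 4 weeks of recovery 3 members rose and 0 fell, with 11 members at an unadjusted p under 0.05 (background 17.3%, with 8.67% higher and 8.60% lower). At 4 weeks 22 members differed from sham, 4 higher and 18 lower (background 60.1%, with 28.9% higher and 31.1% lower). As deposited, 11 members rose and 10 fell at 2 days (background 49.2%, with 32.3% higher and 17.0% lower). From 2 to 7 days the split as deposited was 11 and 11 (66.7%, with 52.0% and 14.7%), and at 1 week of recovery it was 5 and 9 (14.5%, with 6.47% and 8.04%). Between 1 and 4 weeks it was 2 and 3 (19.1%, with 5.06% and 14.1%), and at 4 weeks against sham 10 and 11 (66.4%, with 54.8% and 11.6%). The values as deposited lay above the rescaled log2 differences by 0.19 to 0.49 for the members at 7 days, by 0.25 to 0.35 from 2 to 7 days and by 0.083 to 0.38 at 4 weeks against sham. This moved 14 of the 24 values called at 7 days, 17 of the 24 called from 2 to 7 days and 17 of the 22 called at 4 weeks by over 1.5 times. Comparisons that share the sham or UUO7 libraries are not independent of each other.

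Fewer members also changed by at least 1 on the log2 scale. In UUO7 against sham these were 3 rises (Slc16a3, Hk2 and Pfkp) and 8 falls, beside 24.1% of all genes, 13.4% higher and 10.8% lower. At 2 days there were 1 rise and 5 falls (background 9.06%, with 5.03% higher and 4.04% lower), and from 2 to 7 days 2 rises and 4 falls (14.2%, with 9.18% and 5.04%). In the first week of recovery there were 2 rises and 1 fall (1.26%, with 0.947% and 0.318%), and between 1 and 4 weeks 1 rise, Pcx (0.805%, with 0.521% and 0.284%). At 4 weeks against sham there were 2 rises, Hk2 and Pfkfb3, and 5 falls, the 4 gluconeogenic genes and Khk (13.1%, with 9.91% and 3.23%).

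**Figure D2:**
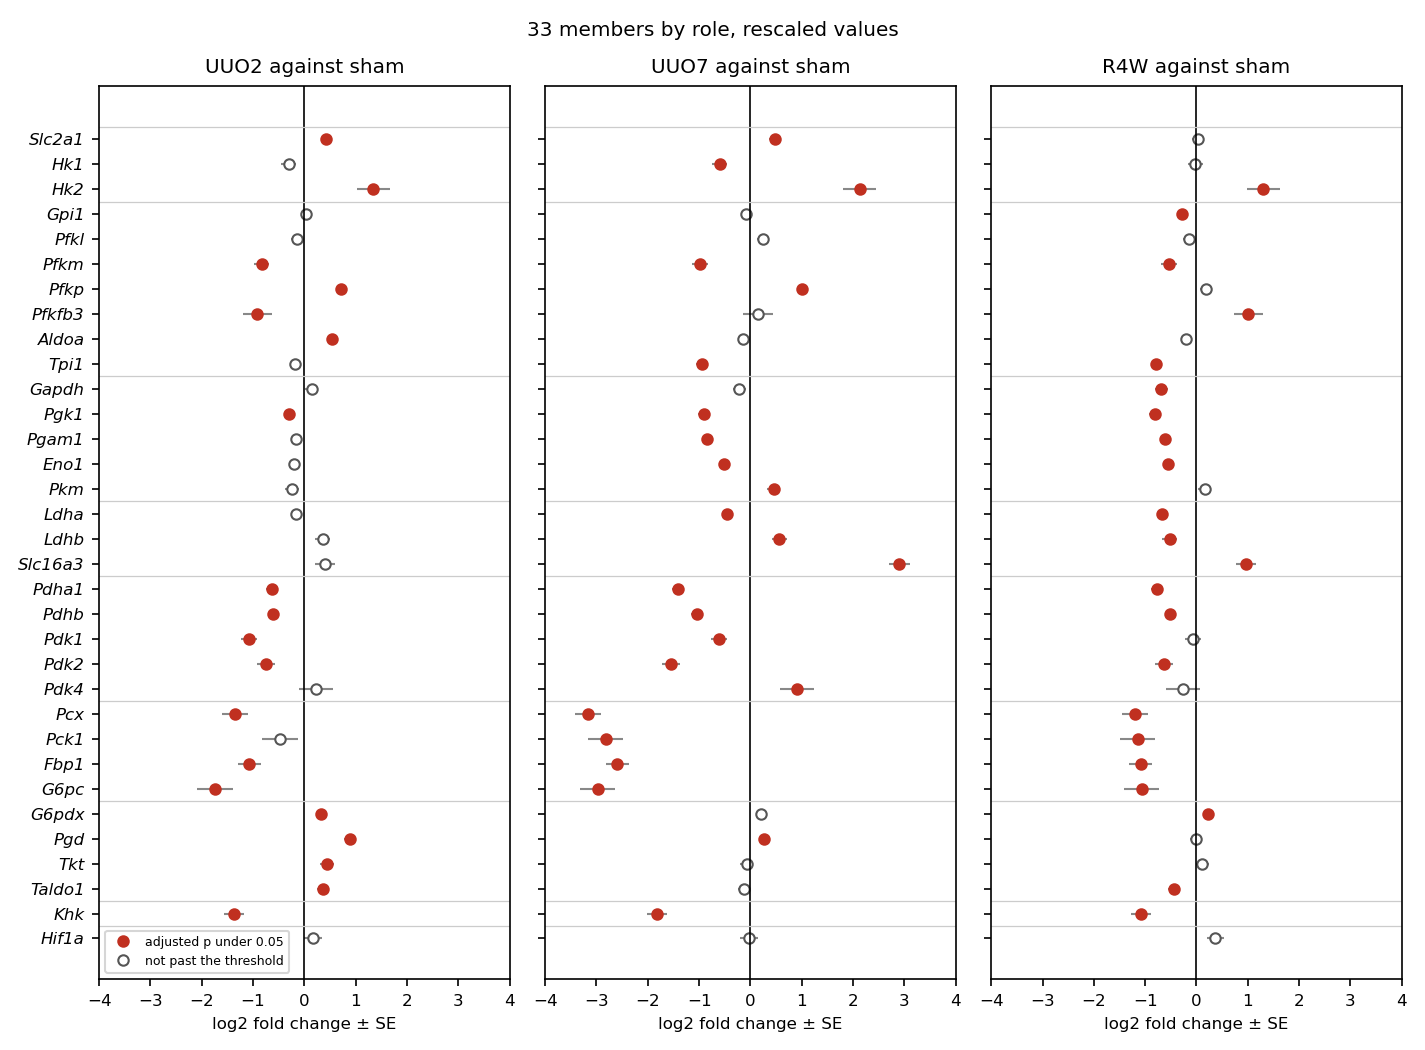
Log2 fold change ± SE of the 33 members, ordered by role, in UUO2, UUO7 and R4W against sham. Filled points passed the adjusted p threshold, and grey lines separate the roles. The 4 gluconeogenic genes lie furthest to the left in UUO7, from -2.59 to -3.16, and from -1.07 to -1.19 in R4W.

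Hk2, the inducible hexokinase, was low in sham and rose at 2 and 7 days, while Hk1, the hexokinase expressed in most tissues, fell at 7 days. The glucose transporter gene Slc2a1 (GLUT1) rose at 2 and 7 days and fell in the first week after reimplantation. Hk2 lies at chr6:82725025-82774454 on mm10. Its sham values were 0.0253, 0.540, 0.0634 and 0.124 rescaled FPKM, and its UUO7 values were 3.83, 5.03, 4.12 and 3.66. All UUO7 libraries stood above all sham libraries, and the log2 fold change was 2.13 (SE 0.32, adjusted p = 4.90e-06). The ratio of the mean rescaled FPKM was 22.1, and the authors' deposited table had a log2 value of 3.691. The added 1 makes the value of 2.13 understate the ratio. In UUO2 the values were 2.86, 0.442, 1.65 and 4.29, so replicate 2 lay below the highest sham value. The rise at 2 days was 1.34 (SE 0.32, adjusted p = 0.00162). In R4W, Hk2 stood at 3.46, 1.5, 1.95 and 1.16, again above every sham library, with a log2 difference of 1.31 (SE 0.32, adjusted p = 0.00150). It was 1.12 (adjusted p = 0.0278) without the 3 libraries high in adipose markers. The further rise from 2 to 7 days, 0.79 (adjusted p = 0.0385), did not pass in a fit of those groups alone (adjusted p = 0.0808) or without UUO2 replicate 2 (0.44, adjusted p = 0.198), nor without UUO2 replicate 3 or UUO7 replicate 1, 2 or 3.

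Hk1 averaged 44.5 ± 6.20 rescaled FPKM in sham (SD, n = 4) and 28.9 ± 2.44 in UUO7, a fall of 0.60 (adjusted p = 9.51e-04) that was -0.13 (adjusted p = 0.454) as deposited. Per length, Hk1 stayed the more abundant hexokinase in every group. The share of Hk2 in the sum of Hk1 and Hk2, which does not depend on the scaling between libraries, averaged 0.381% in sham, 12.6% in UUO7 and 4.38% in R4W. Slc2a1 averaged 25.3 ± 4.21 in sham, 34.2 ± 4.73 in UUO2, 35.3 ± 3.42 in UUO7 and 26.1 ± 1.87 in R1W. It rose by 0.43 at 2 days and 0.47 at 7 days (adjusted p = 0.00216 and 4.28e-04) and fell by 0.42 in the first week of recovery (adjusted p = 0.0144). In R4W it differed from sham by 0.02, short of the threshold, but by 0.38 as deposited (adjusted p = 0.00636), which was called.

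The phosphofructokinase step exchanged isozymes. Pfkp, the platelet-type subunit, rose at 2 and 7 days, and Pfkm, the muscle-type subunit, fell in both. Pfkl, the liver-type subunit, was not called in either comparison with sham after rescaling. Pfkp (chr13:6579768-6648777) read 24.1, 30.3, 28.1 and 32.9 in sham and 61.1, 54.4, 62.8 and 57.8 in UUO7. The groups did not overlap, and the rise was 1.01 (SE 0.11, adjusted p = 4.55e-08). Pfkp fell by 0.53 in the first week after reimplantation (adjusted p = 0.00480), and in R4W it averaged 32.7 ± 2.06, 0.18 above sham and short of the threshold. As deposited that difference was 0.55 and was called (adjusted p = 3.46e-04). Its smaller rise from 2 to 7 days, 0.29 (adjusted p = 0.0227), was 0.21 without UUO2 replicate 2, which missed the threshold, and -0.112 in the authors' deposited table (adjusted p = 0.321). The call was also lost in the fits without UUO7 replicate 1 or 3. Pfkm averaged 31.1 ± 0.532 in sham, 17.9 ± 7.20 in UUO2, 15.3 ± 0.820 in UUO7 and 21.2 ± 1.64 in R4W. Its falls against sham were 0.83, 0.98 and 0.53 (adjusted p = 1.30e-04, 6.64e-06 and 0.00466). As deposited the 4-week difference was -0.17 (adjusted p = 0.289). Pfkm in UUO2 replicate 2, at 28.6, stood close to sham, while the other 3 UUO2 libraries read 13.8 to 15.3. In the sum of the 3 subunit genes the share of Pfkp moved from 32.9% in sham to 55.3% in UUO7 and 41.7% in R4W, and that of Pfkm from 35.8% to 14.3% and 27.0%. Part of Pfkp shares sequence with Pitrm1, which averaged 15.6 FPKM against 41.8.

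Pfkfb3, which makes the phosphofructokinase activator fructose 2,6-bisphosphate, fell at 2 days and was above sham at 4 weeks of recovery. Sham values were 6.47, 18.0, 5.89 and 6.09, so replicate 2 stood well above the other sham libraries. UUO2 values were 4.66, 3.66, 3.36 and 3.80, all below sham, with a fall of 0.91 (SE 0.29, adjusted p = 0.0127). Without sham replicate 2 the difference was -0.56 (adjusted p = 0.0632). In UUO7 the values were 8.91, 9.96, 7.23 and 10.8, inside the sham range, and the log2 difference was 0.15 (adjusted p = 0.656). In R4W they were 27.9, 13.8, 17.5 and 13.7, overlapping sham only through replicate 2, and the rise was 1.01 (SE 0.29, adjusted p = 0.00504). The highest sham value and the 2 highest R4W values were in the 3 libraries high in adipose markers. Without those 3 libraries the rise at 4 weeks was 1.04 (adjusted p = 0.00255), and UUO7 was 0.50 above sham (adjusted p = 0.0422). The authors' deposited table, with all libraries, had 1.036 at 4 weeks (adjusted p = 0.0555).

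Among the other upper glycolytic genes, the aldolase gene Aldoa rose at 2 days and fell back, and the triose phosphate isomerase gene Tpi1 fell. Aldoa averaged 678 ± 38.3 in sham, 983 ± 28.5 in UUO2 and 614 ± 41.5 in UUO7, a rise of 0.54 (adjusted p = 5.93e-05) followed by a fall of 0.68 (adjusted p = 1.83e-06; -0.33 as deposited). Its 7-day value against sham was -0.15 rescaled and 0.34 as deposited. Tpi1 averaged 582 ± 49.5 in sham, 300.1 ± 17.6 in UUO7 and 337 ± 21.0 in R4W, with falls of 0.95 and 0.78 (adjusted p = 1.67e-07 and 6.27e-06) that were called in both scalings, at -0.46 and -0.41 as deposited. Gpi1, glucose 6-phosphate isomerase, averaged 399.7 ± 6.97 in sham and 375 ± 24.1 in UUO7. Its R4W value was 0.28 below sham (adjusted p = 0.00644), and the call was lost as deposited (0.09) and without the 3 libraries high in adipose markers (adjusted p = 0.0676). Pfkl averaged 27.5 ± 4.49 in sham and 32.6 ± 4.41 in UUO7, a difference of 0.24 (adjusted p = 0.0702) that passed without sham replicate 2 (0.34, adjusted p = 0.0117) or UUO7 replicate 2 (0.30, adjusted p = 0.0340). It also passed as deposited (0.71, adjusted p = 5.04e-05) and without the 3 libraries high in adipose markers (0.34, adjusted p = 0.00611).

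Of the 5 lower glycolytic genes, Pgk1, Pgam1 and Eno1 (phosphoglycerate kinase, phosphoglycerate mutase and enolase) fell at 7 days, pyruvate kinase M (Pkm) rose and Gapdh did not pass, beside 36.5% of all genes rising and 36.5% falling. As deposited 2 rose (Pkm and Gapdh) and 2 fell, beside 60.1% of all genes rising and 17.8% falling. At 4 weeks 4 fell and Pkm did not pass, beside 31.1% of all genes falling. As deposited 4 fell and Pkm rose, beside 11.6% of all genes falling and 54.8% rising. Pgk1 averaged 445 ± 22.1 in sham, 363 ± 19.0 in UUO2, 238 ± 8.42 in UUO7 and 255 ± 20.4 in R4W. It fell by 0.90 at 7 days and by 0.80 at 4 weeks (adjusted p = 3.74e-07 and 4.94e-06), at -0.42 and -0.43 as deposited. Its fall of 0.29 at 2 days (adjusted p = 0.0337) missed the threshold as deposited (-0.16, adjusted p = 0.116) and when sham replicate 1, 3 or 4 or UUO2 replicate 1, 3 or 4 was left out. Pgam1 averaged 239 ± 9.08 in sham, 132 ± 7.67 in UUO7 and 156 ± 8.14 in R4W, and its falls of 0.85 and 0.62 (adjusted p = 5.56e-08 and 1.01e-05) were called in both scalings, at -0.36 and -0.24 as deposited. Eno1 fell by 0.51 at 7 days (adjusted p = 5.28e-05), and its difference was -0.03 as deposited (adjusted p = 0.755), so its call rests on the rescaling.

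Gapdh, often used as a reference gene, averaged 1998 ± 118 in sham, 2215 ± 247 in UUO2, 1725 ± 182 in UUO7 and 1241 ± 53.4 in R4W. Its 7-day difference from sham was -0.22 (adjusted p = 0.128) rescaled and 0.27 (adjusted p = 0.0224) as deposited, and -0.555 in the authors' deposited table. At 4 weeks it was 0.69 below sham (adjusted p = 9.83e-05) and 0.31 below as deposited (adjusted p = 0.0127). Of the 33 members 12 share a near-identical stretch with at least 1 other annotated gene, and 21 with none. For Pfkp and Pdha1 the only such gene is Pitrm1 and Map3k15 in turn, and neither is annotated as a pseudogene. Gapdh has 77 near-identical annotated copies (at least 95% identity over at least 300 bases), 5 of which have a row, so its value could share reads with them. The copy with the highest value, Gm12671, averaged 114 FPKM against 1691 for Gapdh.

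Pkm rose from 182 ± 33.4 in sham to 247 ± 29.8 in UUO7 (0.45, adjusted p = 0.00356), although the highest sham library, replicate 2 at 228, overlapped the lowest UUO7 value of 227. It fell by 0.41 in the first week of recovery (adjusted p = 0.0365), a call that held in 1 of the 8 fits with a library left out, the one without UUO7 replicate 2. Pklr, the liver and red cell pyruvate kinase, was the smaller part of the pair and rose at 2 days, from 23.5 ± 3.64 to 80.5 ± 23.7 (1.69, adjusted p = 2.54e-07). In UUO7 it averaged 29.0 ± 2.62. The share of Pkm in the sum of both genes averaged 88.2% in sham, 65.6% in UUO2 and 89.4% in UUO7.

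Slc16a3, the lactate exporter MCT4, had the highest log2 rise of the members at 7 days, from low values in sham and UUO2. The gene lies at chr11:120948480-120960868. Sham values were 0.253, 1.12, 0.279 and 0.360, and UUO7 values were 10.5, 8.83, 8.03 and 13.3. Every UUO7 library stood above every sham and UUO2 library, with log2 differences of 2.91 (SE 0.20, adjusted p = 1.87e-10) and 2.50 (SE 0.20, adjusted p = 2.64e-09). Against sham the ratio of the mean rescaled FPKM was 20.2 (22.1 for Hk2), and the added 1 makes the log2 value understate it. In the first week of recovery Slc16a3 fell by 1.78 (SE 0.20, adjusted p = 2.20e-05). In R4W it stood at 2.10, 1.88, 2.19 and 1.31, all above sham, with a log2 difference of 0.96 (SE 0.20, adjusted p = 3.01e-04). The lowest gene mean over all libraries in the deposited table is 1.0. As deposited, Slc16a3 and Hk2 lay below 1.0 in every sham library, so they have rows only through groups where they are higher.

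The lactate dehydrogenase subunits moved apart at 7 days. Ldhb, the heart-type subunit, averaged 1425 ± 71.5 in sham and 2127 ± 336 in UUO7, a rise of 0.57 (adjusted p = 0.00227). Ldha, the muscle-type subunit, averaged 596 ± 31.8 and 434 ± 27.2, a fall of 0.46 (adjusted p = 3.32e-04) that was 0.03 higher as deposited. Ldhb then fell by 0.67 in the first week (adjusted p = 0.00853, but 0.0599 in a fit of those groups alone) and was 0.52 below sham at 4 weeks (adjusted p = 0.00550), at 991 ± 31.2, though 0.15 below as deposited (adjusted p = 0.369). Ldha was 0.67 below sham at 4 weeks (adjusted p = 9.86e-06). The share of Ldha in the sum of the pair, free of the scaling, averaged 29.5% in sham, 22.7% in UUO2, 17.1% in UUO7, 22.6% in R1W and 27.4% in R4W. The sham range, 29.0% to 29.96%, did not overlap the UUO7 range, 15.3% to 18.9%.

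**Figure D3:**
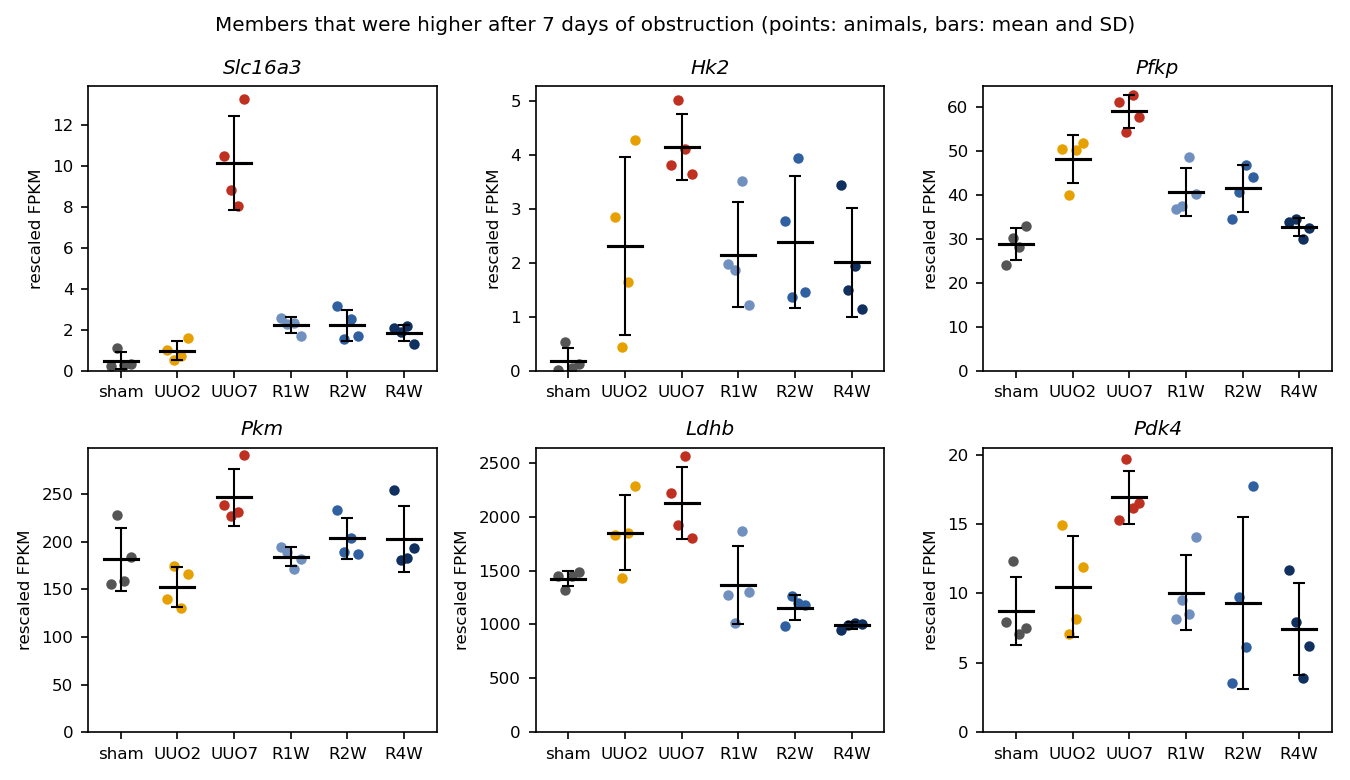
Rescaled FPKM of Slc16a3, Hk2, Pfkp, Pkm, Ldhb and Pdk4 in each of the 24 kidneys by group, with the mean and SD. Slc16a3 lies between 8.03 and 13.3 in UUO7 and at or below 3.18 in all other libraries.

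**Figure D4:**
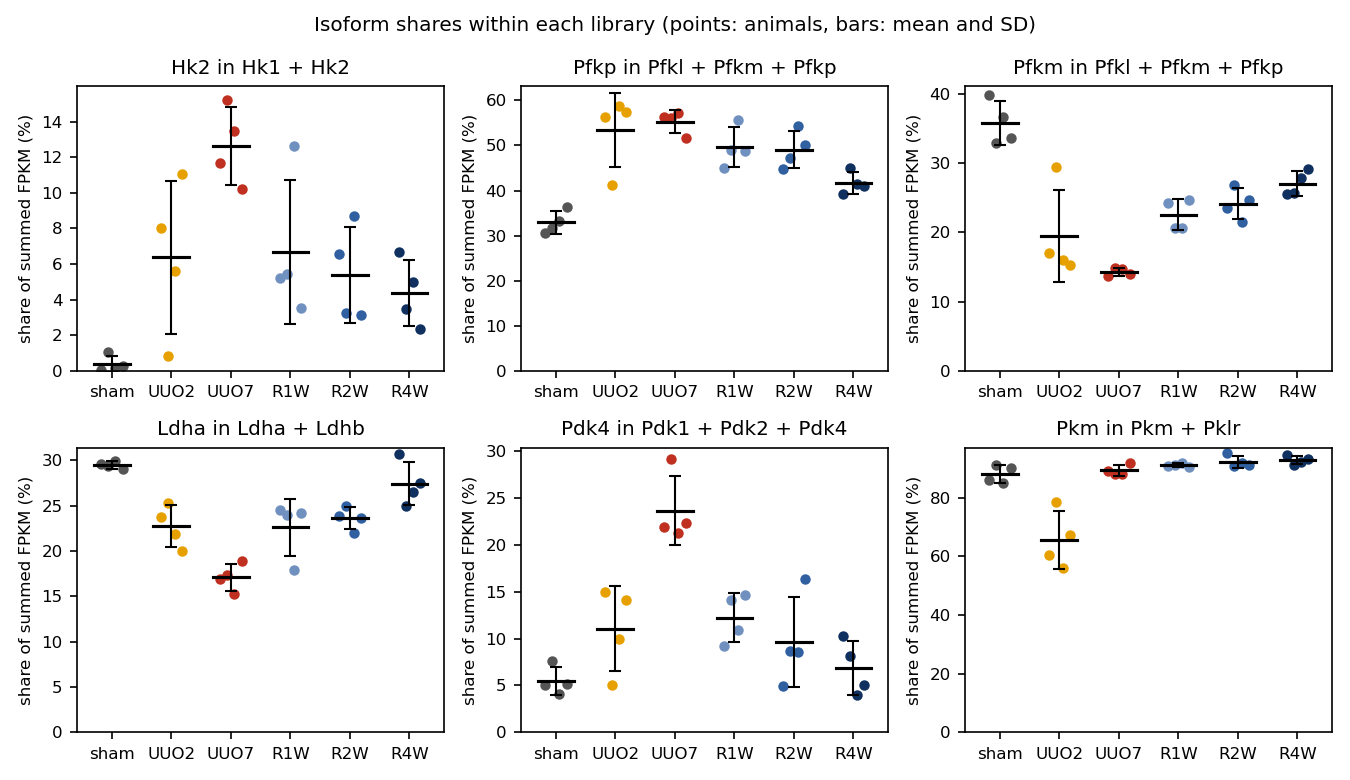
Share of 1 isozyme in the summed FPKM of its isozymes, in percent, for 6 isozymes in each kidney, with the mean and SD. On average the shares of Ldha and Pfkm are lowest in UUO7 and those of Hk2, Pfkp and Pdk4 highest there, with Pfkp at 55.3% against 32.9% in sham.

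Summed markers of other cell types also differed between the groups. The 6 macrophage markers summed to between 49.8 and 72.5 in sham, 613 and 742 in UUO7 and 560 and 1049 in R4W. The 5 fibroblast markers summed to 19.5 to 48.5, 375 to 489 and 175 to 269 in the same groups. The 3 proliferation markers summed to 3.68 to 4.28, 37.3 to 46.7 and 8.90 to 18.4. The 2 lymphocyte markers with a row summed to 0.177 to 0.384, 2.28 to 3.49 and 3.33 to 7.22. The 4 endothelial markers summed to 52.1 to 87.1, 99.99 to 107.4 and 96.8 to 120. In UUO2 these 2 sums were 0.351 to 0.785 and 24.0 to 54.6. In UUO2, where Hk2, Pfkp and Slc2a1 were already called higher, the macrophage sum was 70.3 to 157, the fibroblast sum 67.5 to 119 and the proliferation sum 25.1 to 54.3. In R1W, where Slc16a3, Pfkp, Pkm and Slc2a1 were called lower than in UUO7, the macrophage sum was 736.5 to 969.5, the fibroblast sum 311 to 349 and the proliferation sum 18.0 to 25.3. All markers of these lists were above 0 in every library. Their part in the rises of Slc16a3, Hk2, Pfkp, Pkm and Slc2a1 was not tested. In bulk tissue, fewer cells of a type and less RNA per cell cannot be told apart.

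At the pyruvate dehydrogenase step, the genes of the catalytic subunits were lower at 2 days, 7 days and 4 weeks. Pdha1 and Pdhb, the catalytic E1 subunits, fell in all 3 comparisons with sham and recovered in part within 1 week. Pdha1 read 242, 217, 241 and 232 in sham, 86.7, 92.9, 84.8 and 81.8 in UUO7 and 154, 119, 125 and 148 in R4W. No group overlapped another, and the differences from sham were -1.42 (SE 0.11, adjusted p = 8.70e-10) at 7 days and -0.78 (SE 0.11, adjusted p = 6.15e-06) at 4 weeks. Pdhb read 159, 147, 155 and 156 in sham, 73.5, 80.2, 77.2 and 67.3 in UUO7 and 128, 95.5, 101 and 109 in R4W. Again sham stood above R4W and R4W above UUO7, with falls against sham of 1.04 (SE 0.11, adjusted p = 3.22e-08) and 0.51 (SE 0.11, adjusted p = 3.70e-04). The 4-week difference of Pdhb was -0.14 as deposited (adjusted p = 0.155). In the first week of recovery Pdhb rose by 0.49 (adjusted p = 0.00734) and Pdha1 by 0.39 (adjusted p = 0.0227). The Pdha1 call missed the threshold without UUO7 replicate 1, 3 or 4 or R1W replicate 1 or 4. Part of Pdha1 shares sequence with Map3k15, which averaged 5.60 FPKM against 140.2.

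The pyruvate dehydrogenase kinases, which switch the complex off, did not move together. Pdk2, the most abundant of the 3 members, read 139, 137, 153 and 127 in sham and 47.4, 40.4, 53.1 and 48.02 in UUO7. It fell by 1.54 (SE 0.18, adjusted p = 1.16e-07) with no overlap. R4W values of 89.2, 79.0, 85.5 and 102 were also below every sham library (-0.64, adjusted p = 0.00350), though the call was lost as deposited (-0.27, adjusted p = 0.128). Pdk1, a HIF target, read 11.3, 12.8, 12.7 and 12.4 in sham, against 7.16, 7.63, 6.76 and 9.68 in UUO7. It fell by 1.08 at 2 days (SE 0.16, adjusted p = 1.09e-05) and by 0.60 at 7 days (SE 0.16, adjusted p = 0.00161), with no overlap in either comparison. The 7-day difference was -0.16 as deposited (adjusted p = 0.363). Pdk4, which fasting and fatty acids induce, averaged 8.72 ± 2.46 in sham and 16.9 ± 1.92 in UUO7, a rise of 0.91 (adjusted p = 0.0191) that reached an adjusted p of 0.0504 without sham replicate 3. The share of Pdk4 in the 3 kinase genes averaged 5.47% in sham, 23.6% in UUO7 and 6.86% in R4W.

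Gluconeogenesis carried the largest falls of all members. Pcx (pyruvate carboxylase), Pck1 (cytosolic phosphoenolpyruvate carboxykinase), Fbp1 (fructose bisphosphatase) and G6pc (glucose 6-phosphatase) were 83.4% (Fbp1) to 89.0% (Pcx) lower in UUO7 than in sham by mean rescaled FPKM, and 3 of them had fallen by 2 days (25.5% of all genes fell then). Fbp1 and G6pc rose in the first week of recovery (7.26% of all genes rose), and all 4 were below sham at 4 weeks (31.1% of all genes fell). The authors' deposited table also had Pck1 (0.911, adjusted p = 0.0434) and Pcx (0.757, adjusted p = 0.0130) higher in the first week. Pcx (chr19:4510472-4621752) read 241, 227, 267 and 221 in sham and 30.3, 33.03, 20.1 and 21.7 in UUO7. In R4W it read 126, 84.5, 96.2 and 113. The 3 groups did not overlap, and the falls against sham were 3.16 (SE 0.26, adjusted p = 1.44e-09) and 1.19 (SE 0.26, adjusted p = 4.28e-04). Pcx also rose between 1 and 4 weeks, by 1.26 (adjusted p = 0.00562), though not in a fit of those groups alone (adjusted p = 0.0579) or without the 3 libraries high in adipose markers (1.18, adjusted p = 0.0664).

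Pck1 (chr2:173153048-173159273) read 646, 934, 760 and 725 in sham, 103, 138, 105 and 85.3 in UUO7, and 418, 272, 312 and 388 in R4W. No group overlapped another, and Pck1 fell by 2.82 at 7 days (SE 0.35, adjusted p = 3.36e-07) and by 1.15 at 4 weeks (SE 0.35, adjusted p = 0.00734). UUO2 was split, at 464, 1200, 348 and 455: replicate 2 stood above every sham library and the other 3 below, and the 2-day difference of -0.48 was not called. G6pc (chr11:101367561-101377903) read 111, 130, 123 and 132 in sham, 14.0, 19.1, 12.1 and 15.0 in UUO7, and 73.2, 40.2, 53.3 and 73.8 in R4W. The groups again stood apart, with falls of 2.98 (SE 0.35, adjusted p = 1.67e-07) and 1.07 (SE 0.35, adjusted p = 0.0116). Without the 3 libraries high in adipose markers the 4-week differences were -1.12 for Pck1 (adjusted p = 0.0560) and -1.15 for G6pc (adjusted p = 0.0537). As deposited, G6pc at 4 weeks also missed the threshold (-0.70, adjusted p = 0.0638).

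Fbp1 (chr13:62864753-62888282) read 855, 664, 868 and 749 in sham, 139, 148, 135 and 97.9 in UUO7, and 335, 325, 376 and 440.2 in R4W. It fell by 2.59 at 7 days (SE 0.22, adjusted p = 3.01e-09) and by 1.09 at 4 weeks (SE 0.22, adjusted p = 2.83e-04), without overlap. In the first week of recovery Fbp1 rose by 1.09 (SE 0.22, adjusted p = 0.00484), and all R1W libraries stood above all UUO7 libraries. G6pc rose by 1.09 as well (SE 0.35, adjusted p = 0.0408), but R1W replicate 2, at 17.1, lay within the UUO7 range. That G6pc call missed the threshold without any 1 of UUO7 replicates 1, 3 and 4 or R1W replicates 1, 3 and 4. The sum of the 3 phosphofructokinase genes was 10.2% of that sum plus Fbp1 in sham, 45.4% in UUO7 and 17.7% in R4W.

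**Figure D5:**
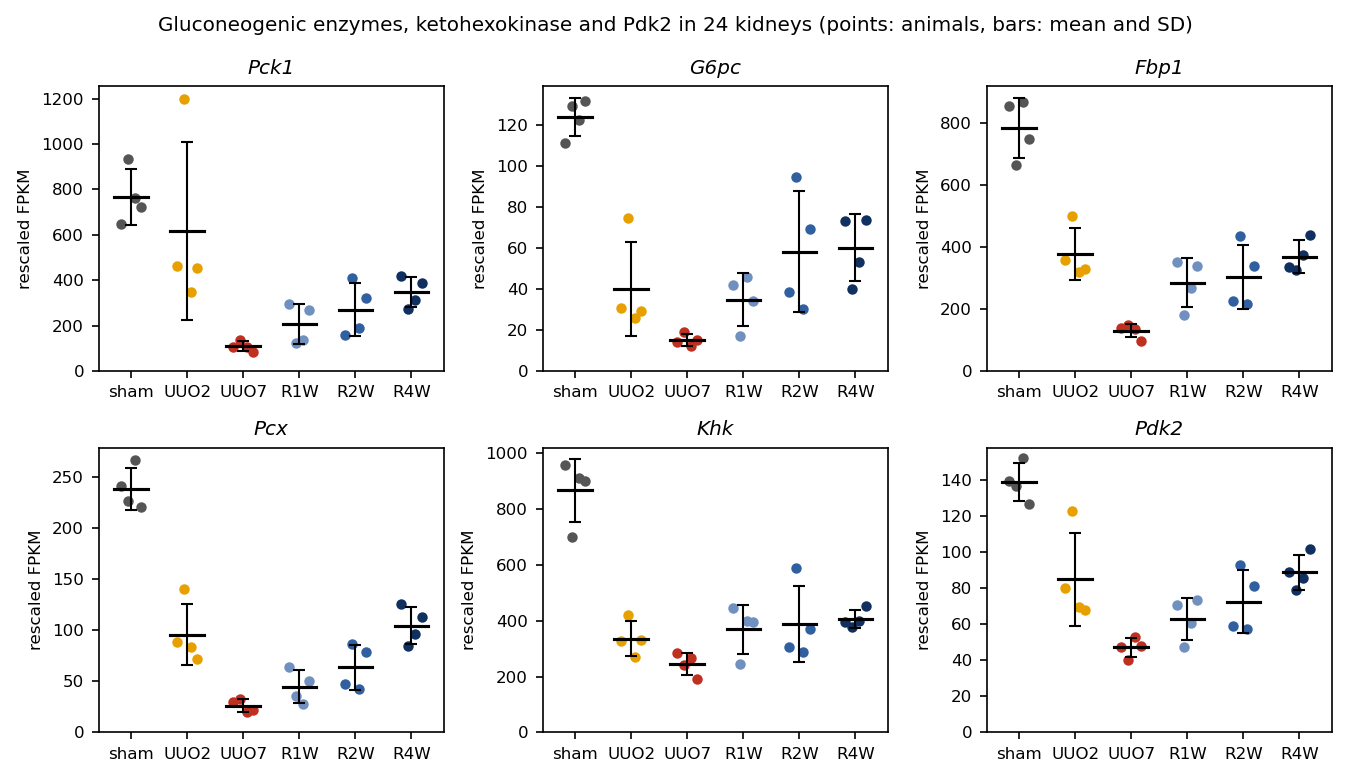
Rescaled FPKM of Pck1, G6pc, Fbp1, Pcx, Khk and Pdk2 in each of the 24 kidneys by group, with the mean and SD. All 6 genes have their lowest mean in UUO7, and their R4W values lie between UUO7 and sham.

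Khk, which phosphorylates fructose in the proximal tubule, fell alongside them. It read 956, 699.8, 910 and 899 in sham, 284, 240.1, 267 and 192 in UUO7, and 396, 378, 400 and 452 in R4W. The 3 groups did not overlap. Its falls were 1.37 at 2 days, 1.82 at 7 days and 1.08 at 4 weeks (SE 0.20 each, adjusted p = 1.35e-05, 8.76e-08 and 1.19e-04). The first-week difference of 0.57 was not called (adjusted p = 0.0633). As deposited it was 0.53 and passed (adjusted p = 0.0403), and the authors' deposited table had 0.706 (adjusted p = 0.00255).

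Summed markers of the proximal tubule were lower beside these genes. The 9 markers, none at 0 in any library, summed to between 6490 and 8614 in sham, 2656 and 3976 in UUO2, 1177 and 1621 in UUO7, 1659 and 3053 in R1W and 2732 and 3876 in R4W. Slc34a1 and Slc27a2 made up most of the sum, at 3407 and 2833 of the mean of 7800 in sham. The markers did not move alike: Slc5a12 read 37.8 to 67.6 in sham and 45.2 to 70.8 in UUO2, while Slc7a13 averaged 490.5 in sham and 29.8 in UUO2. The mean sum was 5.49 times lower in UUO7 than in sham, beside ratios of mean FPKM of 9.10 for Pcx, 8.25 for G6pc, 7.09 for Pck1, 6.03 for Fbp1 and 3.52 for Khk. At 4 weeks the markers were 2.35 times lower than in sham, and the same 5 genes 2.28, 2.06, 2.21, 2.12 and 2.13 times lower. The 6 distal nephron markers summed to between 3158 and 3522 in sham and 1176 and 1426 in UUO7, a mean 2.64 times lower, and were 1.21 times lower than sham in R4W. The part of these marker changes in the falls was not tested.

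All 4 pentose phosphate genes rose at 2 days. G6pdx (glucose 6-phosphate dehydrogenase, the first step), Pgd (6-phosphogluconate dehydrogenase), Tkt (transketolase) and Taldo1 (transaldolase) all rose in UUO2, by 0.33, 0.88, 0.44 and 0.36 (adjusted p = 0.00511, 1.10e-06, 0.00698 and 0.0146), beside 25.3% of all genes higher at that time. Pgd averaged 67.1 ± 3.62 in sham, 126 ± 24.2 in UUO2 and 81.0 ± 3.85 in UUO7. From 2 to 7 days Pgd, Tkt and Taldo1 fell by 0.62, 0.51 and 0.48 (adjusted p = 3.85e-05, 0.00173 and 0.00127). As deposited, only Pgd of these 3 was called (-0.27, adjusted p = 0.0439), with Tkt at -0.16 and Taldo1 at -0.13. The G6pdx difference of -0.13 was not called, and as deposited it was 0.21. At 7 days Pgd was above sham (0.27, adjusted p = 0.0280), a call that was lost without sham replicate 4 or UUO7 replicate 1 or 3. G6pdx at 7 days was 0.20 above sham (adjusted p = 0.0528), and passed without sham replicate 2 (0.26, adjusted p = 0.0205), in a fit of those groups alone (adjusted p = 0.0268) and as deposited (0.66). As deposited all 4 genes were called above sham at both times, with a median log2 difference of 0.54 at 2 days and 0.54 at 7 days. Of all genes 32.3% and 60.1% were called higher as deposited, and their median log2 difference was itself 0.09 and 0.42. These 2-day rises stand on the UUO2 libraries, and the library difference described above cannot be told apart from them.

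At 4 weeks Taldo1 was 0.43 below sham (adjusted p = 0.00325), though 0.06 below as deposited (adjusted p = 0.645). G6pdx was 0.23 above (adjusted p = 0.0328), but 0.13 (adjusted p = 0.177) without R4W replicate 1, which read 24.1 against 17.2 to 18.8 in the other R4W libraries and carried the highest adipose marker sum. That call was also lost without sham replicate 1, 3 or 4 and in a fit of those groups alone (adjusted p = 0.0981), and the authors' deposited table had 0.255 (adjusted p = 0.0897). Tkt in R4W replicate 1 was likewise high, at 215 against 127 to 142.

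Hif1a mRNA did not pass the test in any of the 6 comparisons in the model of all 24 libraries. It read 16.0, 26.5, 15.8 and 14.9 in sham, 17.8, 18.4, 15.4 and 18.1 in UUO7 and 27.7, 19.1, 22.9 and 24.2 in R4W. Sham replicate 2 stood apart, and the 7-day difference was -0.03 (SE 0.17, adjusted p = 0.882). The 4-week difference was 0.37 and passed without sham replicate 2 (0.55, adjusted p = 0.00433), without R4W replicate 2 (0.46, adjusted p = 0.0367) or with that library placed in R2W (0.46, adjusted p = 0.0317). As deposited it was 0.72 (adjusted p = 0.00304). From 2 to 7 days the difference of -0.20 passed in a fit of those groups alone (adjusted p = 0.0318). It was 0.13 as deposited, and -0.265 in the authors' deposited table (adjusted p = 0.00354). HIF activity is set mainly by protein stability, which these data do not measure.

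Of 17 other HIF target genes with a row, 5 rose and 7 fell at 7 days, and 2 rose and 9 fell at 4 weeks. The totals of 12 and 11 called stood beside 73.0% and 60.1% of all genes. As deposited the split turned to 10 rises and 3 falls at 7 days, beside 60.1% and 17.8% of all genes, and to 7 and 2 at 4 weeks, beside 54.8% and 11.6%. Ddit4, a stress-induced inhibitor of mTORC1, rose by 1.85 (adjusted p = 1.41e-08), and P4ha2, a collagen prolyl hydroxylase subunit, by 0.73 (adjusted p = 1.39e-04). Vegfa, the endothelial growth factor, fell by 1.15 (adjusted p = 1.68e-07), Bnip3, a mitophagy receptor, by 0.82 (adjusted p = 2.60e-06) and Egln1, the HIF prolyl hydroxylase, by 0.57 (adjusted p = 1.44e-06). The difference of Egln1 was -0.10 as deposited (adjusted p = 0.173).

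Of 44 other genes of these pathways, 8 rose and 27 fell at 7 days, beside 36.5% of all genes each way, with a median log2 fold change of -0.57 against -0.22 over the 33 members and 0.01 over all genes. As deposited the split was 17 and 21, beside 60.1% higher and 17.8% lower among all genes. Aldoc, the brain-type aldolase, fell by 0.68 (adjusted p = 0.0325), a call lost as deposited (-0.25, adjusted p = 0.442), in a fit of those groups alone (adjusted p = 0.0628) and without sham replicate 2 or 4 or UUO7 replicate 2 or 3.

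The glucose and fructose carriers of the tubule fell as well: Slc2a2 (GLUT2) by 1.78, Slc5a2 (SGLT2, which is also among the 9 markers) by 2.09 and Slc2a5 (GLUT5) by 3.00 (adjusted p = 2.20e-08, 5.23e-09 and 9.51e-09). Slc37a4, which carries glucose 6-phosphate to G6pc, fell by 2.10 (adjusted p = 1.89e-08). The monocarboxylate carriers Slc5a8 and Slc16a7 (MCT2) fell by 2.86 and 2.78 (adjusted p = 1.54e-08 and 2.22e-08), at the same time as Slc16a3 rose. Against this direction, Pck2, the mitochondrial phosphoenolpyruvate carboxykinase, rose from 11.1 ± 0.909 to 27.1 ± 1.04 (1.22, adjusted p = 1.50e-10). It was still 0.54 above sham at 4 weeks (adjusted p = 1.35e-05). Fbp2, the muscle fructose bisphosphatase, rose by 1.23 at 2 days and was 0.39 above sham at 7 days (adjusted p = 1.85e-07 and 0.00917). Per length, Pck2 in UUO7 was below Pck1, which averaged 108 ± 22.0, and Fbp2 was below Fbp1.

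The root mean square log2 distance of the 33 genes from the sham mean was 1.31 to 1.48 in the 4 UUO7 libraries, 0.751 to 1.21 in R1W, 0.516 to 1.05 in R2W and 0.562 to 0.770 in R4W, against 0.108 to 0.295 in the sham libraries. A distance between those of UUO7 and sham does not place each gene between them: the R4W mean lay between the sham and UUO7 means for 19 members, below both for 10 (such as Gapdh, Ldhb and Taldo1) and above both for 4 (such as Pfkfb3 and G6pdx). R2W was spread widely: Khk ranged from 288 to 587 and G6pc from 30.3 to 94.8. UUO2 replicate 2, at 0.429, stood nearer sham than the other UUO2 libraries (0.792 to 0.904). Without it, 24 members in place of 19 were called at 2 days. Over all genes that fit called 4041 higher and 4074 lower, in place of 3739 and 3776. Between 1 and 4 weeks the 3 called rises were Pcx, Hk1 (0.45, adjusted p = 0.0379) and Pgam1 (0.31, adjusted p = 0.0289). The calls of Hk1 and Pgam1 were lost without R1W replicate 3, R4W replicate 1, R4W replicate 2 or R4W replicate 4, and that of Pgam1 also without R1W replicate 2. Pgam1 missed the threshold with R4W replicate 2 placed in R2W (0.30, adjusted p = 0.0509), and Hk1 with the values as deposited (0.39, adjusted p = 0.0751). In a fit of those groups alone both missed it (adjusted p = 0.0884 for Hk1 and 0.0894 for Pgam1).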

How the data were processed

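PolyA RNA of 24 mouse kidneys was sequenced, and groups were taken from sample titles. The authors' deposited table holds 1 value per gene and library. The sources used here do not state its unit, and from the values it was read as FPKM: values are not whole, and library sums run from 717415 to 830179. The submitters' processing notes name Bowtie2, RSEM, DESeq2, FastQC and mm10, without versions or roles. The table's lowest gene mean is 1.0, so low genes had been removed before it was deposited. The table also holds the authors' log2 fold changes and adjusted p-values, per the file headers, which give no log base; the base was read from the values.

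For each of 14402 genes above 0 in every library, values were set against the gene's geometric mean, and each library was divided by the median of these ratios (factors 0.789 to 1.1939). The test was limma's moderated linear model (version 3.58.1, R 4.3.3, variance trend on) of log2(rescaled FPKM + 1). All 24 libraries and 14785 genes entered 1 model with a coefficient per group, and p-values were adjusted by Benjamini-Hochberg over all genes, with a threshold of 0.05. The script was tested on simulated data. Isoform shares, marker sums and distances have no test. R2W is given by levels only.

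The depth is not stated. A scan of low values for whole-fragment steps implied between 25.18 and 35.32 (in units of 1000000 fragments) for 20 libraries and found steps in 0 of the 4 UUO2 libraries. Its settings were adjusted repeatedly after its output on these data was seen, and an earlier form failed on simulated data, so these depths are only implied. No counting interval can be given. Titles and the series text describe separate animals. No 2 libraries held identical values, and the highest correlation within a group was 0.991.

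Every member is named. Values per sample are given for members with a log2 change of at least 1 in UUO2, UUO7 or R4W against sham and for Hif1a. Of the other lists, at most 3 rises and 3 falls of highest absolute log2 change at 7 days are named, among called genes with no overlap and a mean of at least 10 FPKM, besides Pklr, Slc2a2, Slc5a2, Slc37a4 and Aldoc. Some genes that meet this rule are not reported here. The members and all lists were chosen with earlier results of these data known. Alternatives were the values as deposited, a pseudocount of 0.1 or 10, only genes averaging 5 FPKM or more, fits of 2 groups alone, a minimum fold, a replicate block, R4W replicate 2 placed in R2W, all fits without UUO2, and each replicate left out. Leaving out the 3 libraries high in adipose markers was added after seeing the data.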

Additional observations from a re-analysis of the deposited data

Results flagged for a closer look

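Among the 198 groups of 4 values (33 genes in 6 groups), 19 held a library whose gap to the nearest of the other 3, divided by the group's range, was above Dixon's 95% critical value. Chance flags about 1 in 20 groups, which is 9.9 here. The 19 fell in 8 libraries, 6 of them in sham replicate 2 and 5 in UUO2 replicate 2. All values are rescaled FPKM.

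Sham replicate 2 stood above the other sham libraries in Pfkfb3 (18.0 against 5.89 to 6.47), Pdk4 (12.4 against 7.07 to 7.95), Slc16a3 (1.12 against 0.253 to 0.359), Tkt (157 against 133 to 135) and Hif1a (26.5 against 14.9 to 16.0), and below them in Taldo1 (299 against 326 to 327). This is 1 of the 3 libraries high in adipose markers. UUO2 replicate 2 stood above the rest of its group in Pfkm (28.6 against 13.8 to 15.3), Pck1 (1200 against 348 to 464), G6pc (74.5 against 25.9 to 30.9) and Pdk1 (8.88 against 4.13 to 4.87), and below it in Pfkp (40.1 against 50.3 to 51.8). In each of these 5 genes its value lay on the sham side of the other UUO2 libraries.

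In R2W, replicate 1 was high in Pfkfb3 (17.2 against 9.46 to 10.5) and Hif1a (28.4 against 16.3 to 18.0), and replicate 2 in Gapdh (1850 against 1310 to 1370) and Taldo1 (286 against 232 to 236). In R4W, Pkm was high in replicate 1 (254 against 181 to 193), Tpi1 was high in replicate 4 (369 against 326 to 328) and Pgam1 was low in replicate 3 (144 against 158 to 161). Ldha was low in R1W replicate 2 (319 against 406 to 414).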

How the results depend on the processing

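The numbers of called members were 19 (UUO2 against sham), 24 (UUO7 against sham), 24 (UUO7 against UUO2), 11 (R1W against UUO7), 3 (R4W against R1W) and 22 (R4W against sham). Requiring in addition a log2 difference of 1 or more in size left 6, 11, 6, 3, 1 and 7 in that order. R4W against R1W was the least stable. It gave 0 called members in a limma fit of those 2 groups alone. There 10 members had an unadjusted p under 0.05, beside 4461 of all 14785 genes. With the values as deposited the comparison gave 5. It gave 5 without the UUO2 libraries and 2 with R4W replicate 2 placed in R2W. Without the 3 libraries high in adipose markers, a choice made after seeing the data, it gave 0. Over all genes that fit called 89 higher and 99 lower. At an unadjusted p under 0.05 it had 4 members, beside 3740 of all 14785 genes. The other comparisons then gave 20 (UUO2 against sham), 27 (UUO7 against sham) and 18 (R4W against sham). Of all 14785 genes 3500 were then higher and 3564 lower at 2 days. At 7 days these were 5297 and 5312, and at 4 weeks against sham 3623 and 3874. With 1 replicate left out the counts ran from 18 to 24 at 2 days, 23 to 26 at 7 days, 22 to 25 from 2 to 7 days and 21 to 23 at 4 weeks against sham. For R1W against UUO7 they ran from 7 (without UUO7 replicate 1) to 11. For R4W against R1W they ran from 1 (without R1W replicate 3 or R4W replicate 1, 2 or 4) to 6 (without R1W replicate 1 or 2). Over all genes, R4W against R1W gave 37 higher and 78 lower in the fit of those 2 groups alone, against 1282 and 1271 with all libraries. It gave 236 and 234 without R1W replicate 3, and 1673 and 1561 without R1W replicate 1. R1W against UUO7 gave 610 and 533 over all genes without UUO7 replicate 1, against 1074 and 1056. UUO2 against sham gave 4041 and 4074 without UUO2 replicate 2, against 3739 and 3776.

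The scaling reversed signs. As deposited, the log2 difference of UUO7 against sham was 0.39 for Gpi1, 0.34 for Aldoa, 0.27 for Gapdh, 0.03 for Ldha, 0.41 for Tkt, 0.36 for Taldo1 and 0.43 for Hif1a. R4W against sham was 0.091 for Gpi1. UUO7 against UUO2 was 0.044 for Eno1, 0.049 for Ldha and 0.13 for Hif1a. The cause was not tested beyond the shift of the median gene. Hif1a at 7 days, never called, was 0.15 without sham replicate 2, 0.02 without UUO7 replicate 3 and 0.15 without the 3 libraries high in adipose markers, with a range of -0.11 to 0.15 over the libraries left out one at a time.

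Samples were not treated as paired by replicate number. The mean correlation of same-numbered samples' deviations ran from -0.168 to 0.15. It was highest for R1W against UUO7, where single pairs ran from -0.085 to 0.458. These correlations cannot decide whether replicate numbers pair the samples. With the replicate block the counts were 21, 24, 25, 10, 4 and 22 in the order above, and of 117 gene values tested over the members, 1 lost its call (G6pc in R1W against UUO7, adjusted p = 0.0552). A pseudocount of 0.1 cost 1 call and one of 10 cost 2. The minimum mean of 5 FPKM removed Hk2 and Slc16a3 from testing. Of 264 mean isoform shares recomputed with 1 replicate left out, 264 moved by less than 1 SD, which a mean of 4 values cannot fail, so this says nothing about stability.

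FPKM values hold no counts, so counting error cannot be given, and it weighs most on low genes such as Hk2 and Slc16a3 in sham. The UUO2 libraries stood apart from the rest in the scan and in their sample numbers, and bulk tissue does not separate cell numbers from expression per cell.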
